A study of Mus musculus with 12 samples.

Results

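The Xcr1 Clec9a conventional dendritic cells of mouse tumours were taken from single-cell counts by a fixed rule, which found 129 cells among 50416 tumour cells (0.256%). A cell was a member when it had at least 1 unique molecular identifier (UMI, a tag that marks 1 captured transcript) of Xcr1 or Clec9a, at least 2 of H2-Ab1, and none of Ccr7, of the complement genes C1qa, C1qb and C1qc, or of the T cell receptor genes Cd3e and Cd3g. The cells of day 0, which had no mouse listed, were left out: 0 of 7227 such cells met the rule, and 2 of them had an Xcr1 or Clec9a UMI. The members were thus chosen by their measured counts of Xcr1, Clec9a, H2-Ab1, Ccr7, C1q and Cd3 genes, and their levels of these genes are given as a description only.

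Xcr1 encodes the receptor for the lymphocyte chemokine XCL1, and Clec9a encodes DNGR-1, a lectin that binds actin filaments exposed on dead cells. Both mark type 1 conventional dendritic cells, which arise under FLT3 ligand and the transcription factors IRF8, BATF3 and ID2. These cells carry antigen from dead tumour cells onto MHC class I, a route called cross-presentation, and they are known in mouse tumours for priming and recruiting cytotoxic T cells. A second branch of conventional dendritic cells bears Cd209a, Clec10a and Sirpa, and both branches switch on Ccr7 when they mature and leave for the lymph node.

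The series profiled tumours grown in mice from 5 melanoma lines named SCC31, SCC32, SCC35, SCC37 and SCC40, with the 10x Genomics kit that reads transcripts from the 5′ end. Tumours were dissociated, each was marked with an oligonucleotide-tagged antibody (a hashtag), and live cells were sorted with propidium iodide, with no sort for immune cells. In the authors' hashtag table the outcome is rejected for SCC31 and SCC40 tumours and non-rejected for those of the other lines, and 43 tumours are listed at days 6, 10, 16 and 20. A line had a library of its own, and cells from SCC31, SCC35 and SCC40 tumours were also run together in 1 more (the mix library). The table gave each tumour of a line a cage and mouse number of its own, but over lines the 43 tumours have 29 distinct cage and mouse pairs. Whether a pair that recurs is the same animal is not stated, and tests between lines took tumours as separate. Not given in the sources used here were the host's strain, age and genotype, the origin of the lines and any transgene. No treatment is named for any group.

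The 6 libraries held 5 (SCC31), 18 (SCC32), 19 (SCC35), 14 (SCC37), 36 (SCC40) and 37 (mix) members. By line the members numbered 20 in SCC31, 18 in SCC32, 28 in SCC35, 14 in SCC37 and 49 in SCC40, and 33 of the 43 tumours held at least 1. The most in a tumour was 13, and 7 tumours with at least 20 cells held none. Members had a median of 3852 UMIs, from 655 to 17361, against 4198 over all tumour cells, and 615589 UMIs in all. The SCC31 library stood apart, with 335 tumour cells at a median of 1169 UMIs against 3447.5 to 5597 in the others. Of 49000 distinct barcodes of tumour cells, 1395 occurred in more than 1 library, but none of these was a member's. Cells with a second strong hashtag had been left out. Scrublet, which scores likeness to simulated doublets, called 12 of the 129 members (9.30%) against 4.82% of all tumour cells. In the other classes described below it called 9.25% of Cd209a dendritic cells, 13.02% of mature dendritic cells and 11.36% of C1q macrophages. Members were thus not called more often than these classes beyond 9.25%. In the SCC31 and SCC37 libraries a threshold of 0.261 replaced Scrublet's own, with 79 and 449 calls in place of 2 and 0. The called members were kept, and counts without them stand in the closing section.

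Of 308 tumour cells with an Xcr1 or Clec9a UMI, 129 passed the other terms. Among members, 76 had exactly 1 such UMI, 30 had 2, 53 had at least 2, and the most was 10. Clec9a was seen in 104 members and Xcr1 in 52, of which 27 had both, 25 had Xcr1 only and 77 had Clec9a only. The median H2-Ab1 count was 26, and 2 members had the minimum of 2 UMIs. Just outside the rule lay 4 cells with 1 H2-Ab1 UMI, 11 with 1 Ccr7 UMI, 5 with 1 C1q UMI and 1 with 1 Cd3 UMI.

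Among all 3804 cells that met the other terms, 3.39% were members (exact 95% binomial interval 2.84 to 4.02, median 2262 UMIs). An Xcr1 or Clec9a UMI was present in 0.425% of 2588 T cells (at least 2 Cd3e or Cd3g UMIs and no C1q, median 2365 UMIs). It was present in 1.76% of 5285 cells with at least 3 C1q UMIs (median 3137 UMIs). In 31506 cells with neither H2-Ab1 nor Ptprc the share was 0.0381%. The share among H2-Ab1 cells lay above that of T cells of like depth (interval 0.212 to 0.759). It also lay above that of the deeper C1q cells (interval 1.42 to 2.15). These intervals cover counting error only. The shares count genes of the rule, so they are a description and no support for the name. A second UMI was present in 1.39% of the H2-Ab1 cells and 0.0386% of the T cells.

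The name was checked on genes that the rule did not read. Irf8, the transcription factor required for this lineage, was detected in 93 of the 129 members at 820 CPM (counts per 1e+06, the UMIs of a gene per 1e+06 UMIs of the same cells), against 170 in the Cd209a dendritic cells. Flt3, the receptor for the growth factor of the lineage, was detected in 35 members at 89.3 CPM. Neither Irf8 nor Flt3 set members apart from the mature dendritic cells, as given below. Xcr1, Clec9a, Flt3 and Irf8 summed to 1295 CPM in members and 950 CPM in mature dendritic cells. Of 21 listed genes of the Xcr1 Clec9a programme that the rule did not read, a member had a median of 6, against 3 in Cd209a cells, 4 in mature dendritic cells and 3 in C1q macrophages. In 5 members none of Flt3, Irf8, Batf3, Cadm1, Wdfy4, Naaa and Tlr3 was seen. The other classes were cut by like rules: 173 Cd209a dendritic cells, 361 mature dendritic cells with Ccr7 and Fscn1, and 3698 C1q macrophages. The Cd209a and C1q rules asked for no Xcr1 or Clec9a UMI. The mature rule did not read these genes, so that class can hold cells with them.

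Marker genes of other cell types were summed in the members. All 6 B cell markers were at 0, the T cell, NK and neutrophil lists summed to 22.7, 3.25 and 11.4 CPM, and the melanocytic list to 8.12 CPM. Cd3e and Cd3g of the T cell list were set to 0 by the rule. Macrophage markers summed to 297 CPM in 82 members, with 3 of the 10, the C1q genes, set to 0 by the rule. The list of the Cd209a branch summed to 341 CPM in 57 members and the plasmacytoid list to 193 CPM in 28, Siglech among the latter in 3. Fibroblast, endothelial and mast or basophil lists summed to 125, 84.5 and 65.0 CPM, in 20, 24 and 31 members. Monocyte markers stood higher: Ly6c2, Plac8, Ccr2, Chil3, Vcan and F13a1 summed to 2070 CPM, were seen in 105 of the 129 members and ranged from 309 to 2779 CPM over the line and library sums. That list summed to 1958 CPM in Cd209a cells, 421 in mature cells and 1375 in C1q macrophages. The members thus carried monocyte markers beside those of the name, and they are called by their rule, the Xcr1 Clec9a cells, or members. Fewer transcripts per cell and fewer cells of a kind cannot be told apart in these sums.

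The sum of the monocyte list was higher in the 77 members with Clec9a alone. The monocyte list summed to 1179 CPM in the 52 members with an Xcr1 UMI and to 2878 CPM in those with Clec9a only. Ly6c2, a marker of inflammatory monocytes, stood at 280 and 1035 CPM. Plac8, another monocyte marker, stood at 779 and 1790 CPM in the same order. Ccr2, a further gene of the list, did not follow them. It stood at 71.6 CPM in members with both genes, 98.9 with Xcr1 only and 49.6 with Clec9a only. The lineage genes were higher with Xcr1. Irf8 stood at 1151 against 520 CPM, Wdfy4 at 772 against 251 and Cst3 (cystatin C) at 29459 against 13641. Cd24a, a surface glycoprotein of this branch, stood at 430 against 192 CPM.

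Irf8 in the members with Xcr1 was 1212 CPM in SCC31, 1036 in SCC32, 1215 in SCC35, 1318 in SCC37 and 1062 in SCC40. In the members with Clec9a alone it was 381, 319, 810, 171 and 562 CPM in the same order. The lowest line with Xcr1 lay above the highest line without it. Wdfy4, which encodes a protein needed for cross-presentation of cell-bound antigen, ran from 414 to 926 CPM with Xcr1 and from 117 to 405 CPM without, again with no overlap. Ly6c2 was 361, 1105, 0, 456 and 260 CPM with Xcr1 and 1553, 1140, 229, 1767 and 1092 CPM without, lower with Xcr1 in each line but with overlapping ranges. The members with Xcr1 were deeper, at a median of 4998 against 3388 UMIs. The sums hold 4 to 32 cells, and this split was made on a gene of the rule, so no test is given.

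**Figure D1:**
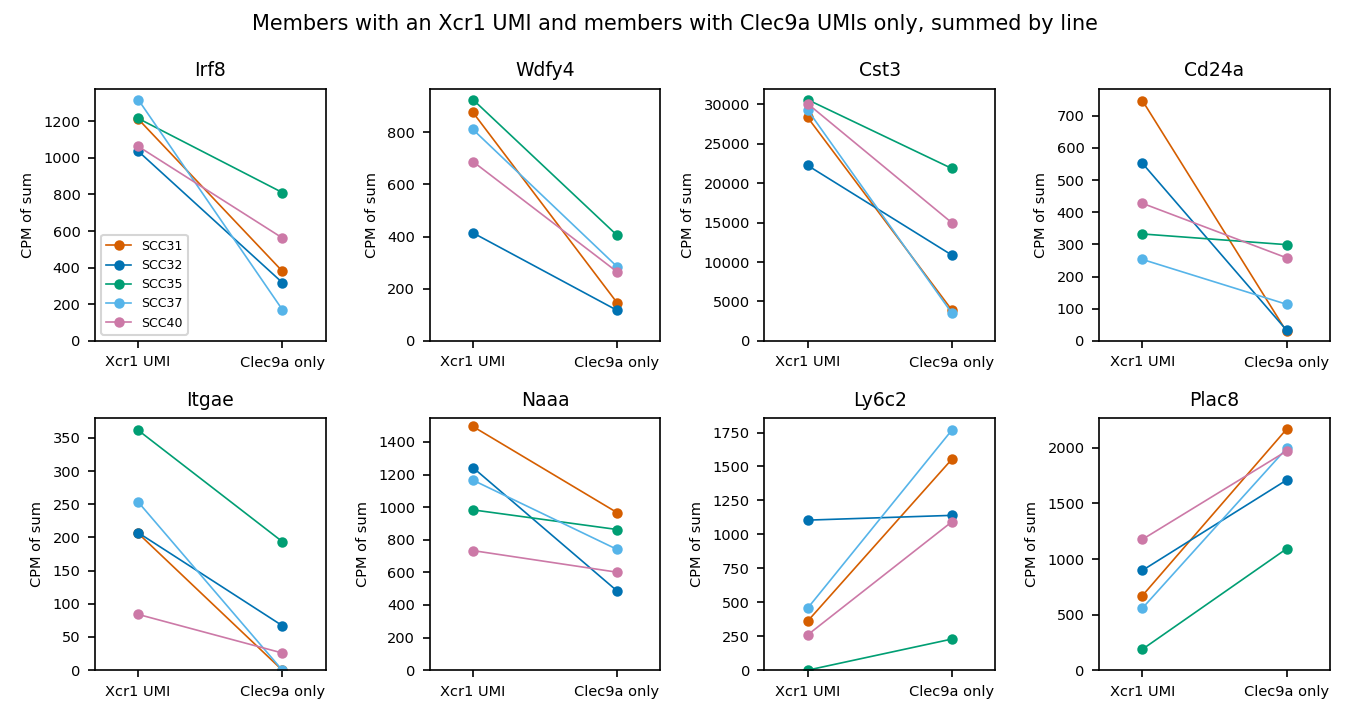
Levels of 8 genes (y axis, CPM of the sum) in members with an Xcr1 UMI and in members with Clec9a UMIs only (x axis), with 1 point for each of the 5 lines and a segment joining the points of a line. Irf8 and Wdfy4 do not overlap between the subsets (Irf8 1036 to 1318 against 171 to 810 CPM), and Ly6c2 is lower with Xcr1 in each line.

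The 27 members with both Xcr1 and Clec9a had the fullest set of lineage genes. They carried a median of 12 of the 21 programme genes, against 8 with Xcr1 alone and 4 with Clec9a alone. Irf8 was seen in 27 of the 27, in 21 of 25 and in 45 of 77. Batf3, the partner of IRF8 at its enhancers, was seen in 19, 7 and 14 of the same cells, and Cadm1, an adhesion molecule of the branch, in 13, 8 and 6. S100a4, a calcium-binding protein abundant in monocyte-derived cells, stood at 99.2, 1196 and 1719 CPM. Median depth was 6249, 2579 and 3388 UMIs, so the shares of cells are not at equal depth.

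A 300-base window around each programme gene's start (250 bases before, 50 after) was read from RefSeq for the build GRCm38.p6, on the gene's strand, and 17 of 24 listed symbols matched. The 24 symbols are 23 genes, since Sept3 was listed under both its names. The windows of Ifi205, an interferon-inducible DNA-sensor family gene of the branch, and of Wdfy4 are shown because both genes were higher in the members in all 3 class comparisons below. The search covered both strands for 3 motifs: GGAA, NN and GAAA in a row (the composite site of ETS factors with IRF factors), GAAA, NN and GAAA in a row (a pair of IRF elements, which can overlap the first), and TGANTCA (the AP-1 site used by BATF proteins), where N is any base. Ifi205 (chr1:174031706-174032005, minus strand) holds the pair of IRF elements at 2 places, in capitals, and Wdfy4 (chr14:33185017-33185316, minus strand) holds none of the 3.
Ifi205: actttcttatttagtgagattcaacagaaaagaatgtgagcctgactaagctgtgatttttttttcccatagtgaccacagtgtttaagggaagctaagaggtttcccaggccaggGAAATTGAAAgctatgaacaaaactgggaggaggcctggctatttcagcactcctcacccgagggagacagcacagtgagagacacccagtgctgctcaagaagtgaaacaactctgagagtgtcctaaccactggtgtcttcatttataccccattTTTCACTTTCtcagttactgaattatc
Wdfy4: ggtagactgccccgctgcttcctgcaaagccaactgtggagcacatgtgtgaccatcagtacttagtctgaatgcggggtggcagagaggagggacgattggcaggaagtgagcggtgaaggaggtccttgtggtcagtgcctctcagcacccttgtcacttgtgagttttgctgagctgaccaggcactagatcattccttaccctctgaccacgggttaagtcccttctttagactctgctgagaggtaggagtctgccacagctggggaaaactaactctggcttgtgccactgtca
Of 32841 RefSeq promoter windows of this length, 2.72% hold the composite site, 3.44% the pair of IRF elements and 7.81% TGANTCA. The other match among the programme genes was TGANTCA in the window of Zbtb46. Most genes had 1 start, and Irf8 and Snx22 had more than 1. Some starts lie inside the gene's outer limits, those of Wdfy4, Zbtb46, Tlr3 and Nfil3 among them (Wdfy4 spans 32959547 to 33193855). Other starts of these genes were not searched. A match is a description and not a site, and no match says only that these letters are not in this window. Ifi205 belongs to a family of near-identical genes, so the authors' counting could have split or shared its reads.

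Pooled over lines, members made up 74 of 13611 cells (0.544%) at day 6, 33 of 14611 (0.226%) at day 10, 16 of 12555 (0.127%) at day 16 and 6 of 9639 (0.0622%) at day 20. Day 20 holds no SCC31 or SCC40 tumour, so the pooled shares also differ in their lines. Within lines the mean share was higher at day 10 than at day 6 in SCC31 (1.31 and 0.795%) and SCC37 (0.333 and 0.296%). In 4 of the 5 lines the mean share at the last day sampled was below that at day 6, and SCC31, whose last day with enough cells was day 10, went the other way. The test over tumours did not pass, as given below.

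In SCC40 the day 6 tumours held 1.04, 0.707 and 0.684% members and the day 16 tumours 0.215 and 0.490%. The day 6 tumours, with 9, 10 and 9 members, lay above the day 16 tumours, with 3 and 6, without overlap. The exact binomial intervals of the day 16 tumours reached 0.628 and 1.06%, the second above all day 6 values. In SCC32 the 2 tumours of day 6 held 0.363 and 0.494% and those of day 20 0.0960 and 0.0890%, also without overlap. These values rest on 5 and 7 members at day 6 and on 1 member in each day 20 tumour. The exact binomial intervals of the day 20 tumours reached 0.534 and 0.495%, above both day 6 values, so counting error alone could close the gap. In SCC37 they held 0.484 and 0.109% at day 6 and 0.101 and 0% at day 20, where 0 of 1592 cells allows a share of up to 0.188%. In SCC35 the 3 tumours of day 6 held 0.204, 0.557 and 0.261%, and of the 3 at day 20 a single tumour held members, 0.219% of its cells. In SCC31 the day 6 tumours held 0, 1.32 and 1.07% and the day 10 tumours 2.37 and 0.261%, and these overlapped. The tumour at 2.37% had 4 members among 169 cells of the shallow SCC31 library. Nothing in the labels says whether tumours of 1 line shared an injection day, and the p-values below measure the spread between these tumours.

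Averaged over the 5 lines, the share of all cells changed by -0.158 percentage points from day 6 to the last day. The two-sided exact permutation test, with tumours permuted within each line (72000 arrangements), gave p = 0.446. Without the SCC31 tumour of 4 members the value was -0.369 points, with adjusted p = 0.0144 in the same exact permutation test. Without the other SCC31 day 10 tumour, which is in the mix library, it was 0.0526 points. Among cells with a Ptprc UMI (CD45, the marker of white blood cells) the change was -0.651 points (p = 0.0739, exact permutation test, adjusted p = 0.286 over 5 share comparisons). Both parts of this share count only cells with a Ptprc UMI, which 89 of the 129 members had. The SCC31 tumour of 4 members counts 1 there. Without that SCC31 tumour the change among Ptprc cells was -0.854 points, adjusted p = 0.0144 in the exact permutation test. So the call of a decline turned on 1 tumour in both measures. A share of cells does not tell fewer dendritic cells from more cells of other kinds.

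**Figure D2:**
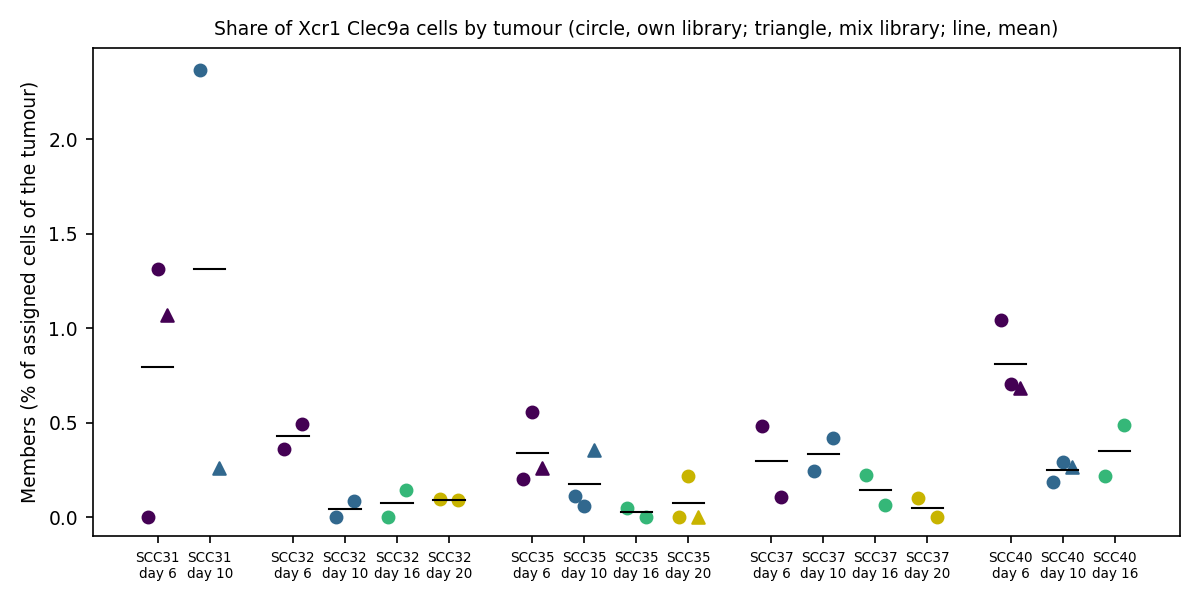
Share of members among the assigned cells of each tumour with at least 20 cells (y axis, percent) by line and day (x axis), with 1 point for each tumour (triangle, mix library) and a bar at the mean. SCC40 tumours lie between 0.684 and 1.04% at day 6 and at 0.215 and 0.490% at day 16, and the highest point is the SCC31 day 10 tumour at 2.37%.

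Between lines the share among cells with a Ptprc UMI, which again leaves out members without one, did not pass a test. At day 6 it averaged 2.63% ± 1.38 (SD, n = 3 tumours) in SCC40 and 0.539% ± 0.134 (SD, n = 2) in SCC32 (exact permutation test over 5 lines, p = 0.114, adjusted p = 0.286). At day 10 the highest and lowest line means lay 1.11 points apart, and the same test gave p = 0.313 and adjusted p = 0.391 (exact permutation). Without the mix library they lay 2.09 points apart. The highest line was then SCC31, left with 1 tumour that had 1 member among 45 Ptprc cells (2.22%). Over days 6 and 10 the rejected lines averaged 1.48% ± 0.650 (SD, n = 2 lines) and the non-rejected lines 0.714% ± 0.327 (SD, n = 3 lines). That difference of 0.762 points had p = 0.2 in the two-sided exact permutation test, the smallest that its 10 arrangements can give, and adjusted p = 0.333. Line and library cannot be told apart outside the mix library.

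The share of members with an Xcr1 UMI was 27.0% of 74 at day 6, 57.6% of 33 at day 10, 56.3% of 16 at day 16 and 66.7% of 6 at day 20. The Xcr1 level was 152, 150, 155 and 229 CPM on those days and the median depth 2972, 4958, 6831 and 3820.5 UMIs. No order is read from the shares, since the level did not follow them. Both genes are terms of the rule.

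Gene expression was compared between classes within sums of line and library. Each sum pools the cells of several tumours and days, and 6 sums had at least 10 cells of both classes: SCC31 in the mix library (15 members), SCC32 (18), SCC35 (19), SCC37 (14), SCC40 (36) and SCC40 in the mix library (13). Sums are listed below in this order. They held 57004 to 215534 UMIs of members each. The tests are edgeR's quasi-likelihood test with the sum as a block and Benjamini-Hochberg adjustment over all genes tested, and a gene passed at an adjusted p below 0.05. Genes that a rule read were not tested. A gene entered a comparison when its counts sufficed in either class, so the tested genes of a list lean toward those high in 1 of the classes, and counts and medians over them describe the tested genes only. The 6 sums stand for 5 lines, so p-values measure the spread between these sums.

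Against the Cd209a dendritic cells, the members were higher in the Xcr1 Clec9a programme and lower in part of the Cd209a programme. Of 1050 genes tested, 25 passed (2.38%), 18 of them higher in members (1.71%) and 7 lower (0.667%). All 6 programme genes that had enough counts to be tested were higher: Cd24a, Id2, Wdfy4, Irf8, Naaa and Ifi205, with a median log2 fold change of 2.19 against -0.01 over all genes tested. The 17 other programme genes either were read by the rule or had too few counts. Of 10 tested genes of the Cd209a branch, 3 were lower, Clec10a, Tmem176b and S100a4, and 0 higher (median -1.01).

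Cd24a stood at 316, 135, 357, 211, 399 and 143 CPM in the members. It stood at 34.8, 12.0, 49.7, 15.8, 41.7 and 12.7 CPM in Cd209a cells. The lowest member sum was above the highest Cd209a sum, and the log2 fold change was 3.17 (SE 0.24, edgeR adjusted p = 7.10e-05). Id2, which restrains E-protein factors in dendritic cell development, was 482, 229, 590, 491, 422 and 442 CPM against 157, 48.0, 88.4, 119, 97.3 and 63.3 CPM. Its values did not overlap either (log2 fold change 2.27, SE 0.20, edgeR adjusted p = 1.61e-04).

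Irf8 was 813, 459, 878, 965, 877 and 528 CPM in members and 331, 300, 105, 103, 201 and 101 CPM in Cd209a cells. SCC32 and the mix library sum of SCC40 were the lowest members and still above all Cd209a sums (log2 fold change 2.12, SE 0.32, edgeR adjusted p = 0.00486). Wdfy4 was 466, 175, 644, 649, 483 and 385 CPM against 34.8, 144, 133, 111, 97.3 and 50.7 CPM, with SCC32 again lowest (2.26, SE 0.30, edgeR adjusted p = 0.00239). Cst3 was 17095, 13100, 23694, 21349, 24163 and 14900 CPM against 3571, 7601, 5072, 5370, 7231 and 3611 CPM. All member sums lay above all Cd209a sums (1.86, SE 0.18, edgeR adjusted p = 2.41e-04).

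Naaa, a lysosomal amidase of the branch, averaged 840 ± 249 CPM (SD, n = 6 sums) against 309 ± 151 CPM, and Ifi205 650 ± 128 against 307 ± 141 CPM. Genes outside the lists moved with them. Mpeg1, which encodes the pore-forming protein perforin-2, had a log2 fold change of 1.96, Rab43, a small GTPase, 1.34, and Psap, the precursor of lysosomal saposins, 1.06. Among the lower genes, Clec10a, a galactose lectin of the Cd209a branch, was 135, 94.4, 54.8, 17.5, 51.0 and 57.1 CPM in members against 383, 288, 332, 245, 326 and 253 CPM. No member sum reached the lowest Cd209a sum (log2 fold change -2.21, SE 0.26, edgeR adjusted p = 0.00113). Fabp5, a fatty acid carrier, had a log2 fold change of -2.03, Tmem176b -1.78, S100a6 -1.21 and S100a4 -1.17. H2afj and Nme2 were lower by smaller amounts, with log2 fold changes of -0.85 and -0.50.

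**Figure D3:**
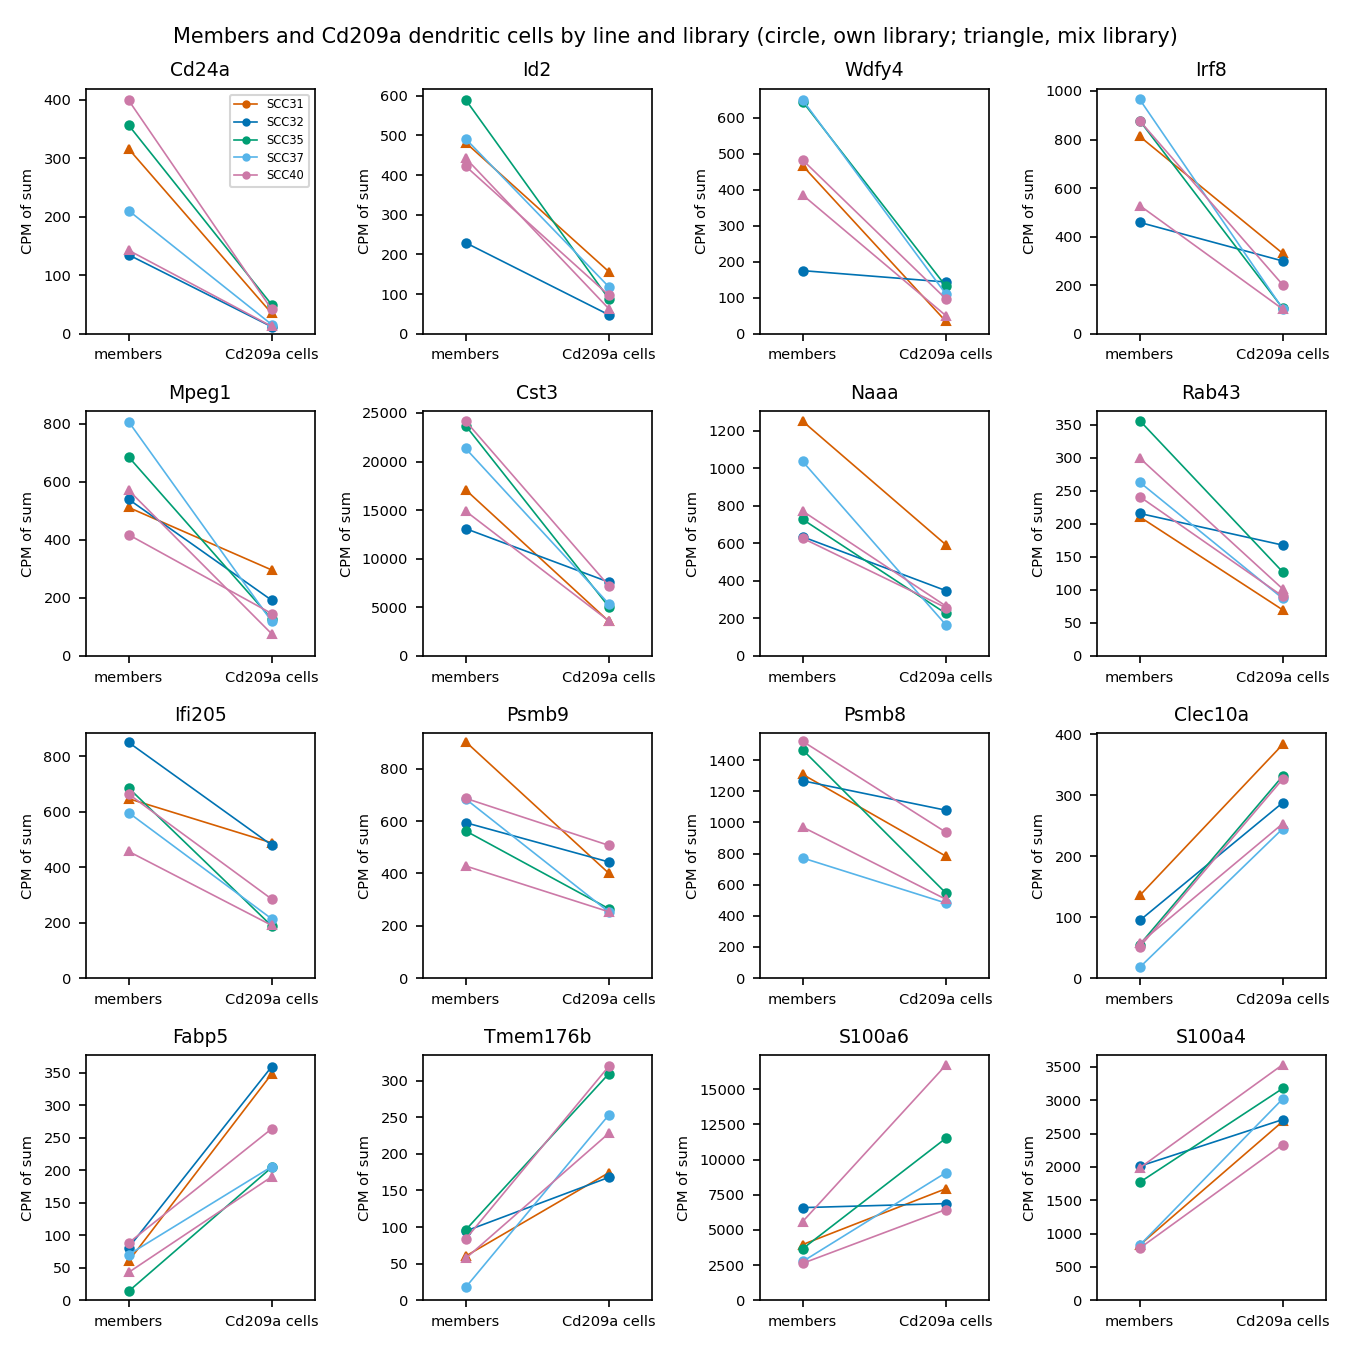
Levels of 16 called genes (y axis, CPM of the sum) in members and in Cd209a dendritic cells (x axis), with 1 point for each of the 6 line and library sums (triangle, mix library) and a segment joining the points of a sum. Cd24a, Id2, Irf8, Wdfy4 and Cst3 lie higher in members with no overlap, and Clec10a lies lower with no overlap.

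The MHC class I and cross-presentation list had 3 higher and 0 lower of 16 tested. Psmb8 and Psmb9, subunits of the immunoproteasome that cuts peptides for class I, were among them. Psmb8 was 1309, 1268, 1467, 772, 1522 and 971 CPM in members and 784, 1079, 547, 482, 938 and 507 CPM in Cd209a cells. Members were higher in all 6 sums, although the ranges overlapped (log2 fold change 0.80, SE 0.14, edgeR adjusted p = 0.0121). Tap2, a subunit of the peptide transporter, did not pass, at 1.01 (SE 0.24, edgeR adjusted p = 0.0574), nor did Tap1 at 0.56. No gene of the interferon list (10 tested), the cytokine list (8) or the maturation list (3) passed. Cxcl9, a chemokine for T cells, had a log2 fold change of 0.61, and Il1b one of -0.90, and neither passed.

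The 25 calls of this comparison leaned on SCC40. Without SCC40, 5 genes passed, of which 3 were among the 25, and Irf8, Wdfy4, Naaa, Ifi205, Mpeg1 and Clec10a no longer passed, at log2 fold changes of 2.04, 2.10, 1.55, 1.15, 1.89 and -2.06. Cst3, Fabp5 and Id2 passed in each alternative in which they were tested, this one included. Cd24a was not among the genes tested without SCC40 and passed in the 11 alternatives that tested it. A further fit took the 37 members that had an Xcr1 UMI, in 4 sums of at least 5 cells of each class. There 60 genes were higher (5.76% of 1042 tested) and 80 lower (7.68%), and 23 of the 25 were among them. In that fit 9 of 9 tested programme genes were higher, the 6 named above and Rab7b, Ppt1 and Sept3, and 7 of 10 genes of the Cd209a branch were lower. Irf8 then averaged 1201 ± 102 CPM (SD, n = 4 sums) against 185 ± 108 CPM. Ly6c2 stood at 269 ± 212 CPM against 552 ± 307 CPM in Cd209a cells (log2 fold change -1.22), and over all members it was not called, at 0.35. Members with Xcr1 are the subset shown above to be low in Ly6c2, so no p-value is given for it. Of 7 interferon genes, 3 were lower in the Xcr1 fit, among them Isg15 (-1.46) and Gbp2 (-1.79), against 0 of 10 over all members. All 4 tested cell cycle genes were higher there, against 0 of 3. Choosing members by Xcr1 was added after the data were seen and reads a gene of the rule, so the calls of this fit are a description.

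Against the mature dendritic cells, which the Ccr7 and Fscn1 terms cut apart from the members, 17 of 18 tested genes of the maturation list were lower and 7 of 13 of the programme list higher. Of 2321 genes tested, 577 passed (24.9%), 260 of them higher in members (11.2%) and 317 lower (13.7%). In the 37 members with an Xcr1 UMI, 198 of 2130 were higher (9.3%) and 289 lower (13.6%). The class rule and the count filter both favour maturation genes that are high in mature cells (3 were tested against Cd209a cells), so that count is no measure of the list. Of the tested programme genes 0 were lower (median log2 fold change 2.23 against -0.02 over all genes). Flt3, Irf8, Batf3, Nfil3, Id2 and Cadm1 did not pass, with log2 fold changes of -0.60, -0.12, -0.59, -0.21, -0.55 and 0.34. The mature rule did not exclude Xcr1 or Clec9a, so mature cells of the same branch can be in that class. Xcr1, Clec9a, Flt3 and Irf8 summed to 950 CPM there and to 1295 CPM in members, whose rule reads Xcr1 and Clec9a. The part of such cells in these values was not tested.

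Fabp5 was 60.2, 80.9, 13.7, 70.2, 88.2 and 42.8 CPM in members and 3097, 1955, 1666, 2478, 4167 and 3901 CPM in mature cells. The gap between the classes exceeded the spread within each (log2 fold change -5.62, SE 0.24, edgeR adjusted p = 4.62e-10). Ccl22, a chemokine for regulatory T cells, was 0, 13.5, 27.4, 351, 23.2 and 42.8 CPM against 2001, 905, 255, 1721, 619 and 2961 CPM. The SCC37 members stood apart at 351 CPM and overlapped the lowest mature sum (-4.49, SE 0.46, edgeR adjusted p = 3.71e-06). Relb, the NF-kB subunit of maturation, was 15.05, 67.5, 41.1, 105, 65.0 and 57.1 CPM against 351, 329, 159, 286, 329 and 342 CPM (-2.39, SE 0.28, edgeR adjusted p = 1.66e-05).

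Il12b, the p40 subunit of interleukin-12, had 0 UMIs in the 6 member sums and 593 in the mature sums, at least 64.3-fold lower against a floor of 3 counts over the group. Outside those sums 1 member carried an Il12b UMI, and Il12a, Ifnb1, Il10 and Il23a were at 0 in all 129 members. Socs2, a feedback inhibitor of cytokine signals, had 2 UMIs against 712, a ratio of 116 with a counting interval of 31.9 to 958. Mreg had 1 against 278, a ratio of 90.4 with an interval of 16.1 to 3585. Ccl5, another T cell chemokine, was lower (log2 fold change -5.63), as were the co-stimulatory Cd40 (-1.76) and the PD-L1 gene Cd274 (-1.37). Ly75, the uptake receptor DEC-205, was lower as well (-2.55). Of 11 tested cytokines and chemokines 2 were higher and 5 lower. The chemokine gene Ccl4 was higher, at 348 ± 241 against 45.3 ± 29.1 CPM (SD, n = 6 sums, log2 fold change 2.70). Of 10 tested genes of the Cd209a branch 2 were higher, Mgl2 (2.17) and Ms4a6c (2.15), and 3 lower. Ccl4 and Ms4a6c did not pass in members with an Xcr1 UMI.

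Naaa was 1249, 634, 727, 1035, 626 and 771 CPM in members and 50.7, 71.2, 47.8, 13.8, 17.3 and 15.5 CPM in mature cells. The lowest member sum was far above the highest mature sum (log2 fold change 4.46, SE 0.30, edgeR adjusted p = 1.07e-07). Wdfy4 was higher by 3.63 and Ifi205 by 2.23 on the log2 scale. Sept3, a septin that marks this branch, was higher by 4.57, the late-endosomal GTPase gene Rab7b by 3.99, and Ppt1, a lysosomal thioesterase, by 3.59, while Lgmn, a lysosomal protease, was lower (-1.71). Plbd1, Cd180 and Gpr171, which are outside or at the edge of the programme, were higher by 3.44, 4.35 and 3.34.

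H2-DMb1, a chain of the chaperone that loads class II peptides, was 677, 580, 494, 386, 654 and 542 CPM in members and 70.2, 110, 87.7, 50.8, 80.8 and 69.9 CPM in mature cells. No values overlapped (log2 fold change 2.78, SE 0.19, edgeR adjusted p = 1.07e-07), though H2-DMb1 has a close copy, H2-DMb2, with which reads could be shared. H2-DMa (1.75) was also higher, and Ciita, the master activator of class II genes, passed at 0.90 but lost the call in 7 of 13 alternatives, with 0.13 in members with an Xcr1 UMI. In all, 5 of 11 class II genes were higher and 1 lower. The class I list was split, with 5 higher, among them Pdia3 (1.11), and 5 lower, among them Tapbpl (-1.46) and Nlrc5 (-1.13), of 20 tested. Unc93b1, of the sensor list, was higher (1.78). Of 26 interferon genes, 3 were higher and 5 lower, Isg15 among the latter at -0.94. Ly6c2 and Plac8, the monocyte markers, were higher in members by 2.86 and 2.02.

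Against the C1q macrophages, which the C1q terms cut apart from the members, 10 of 13 tested programme genes and 9 of 12 class II genes were higher, and 10 of 14 cytokines and chemokines and 9 of 13 uptake receptors were lower. Of 3989 genes tested, 586 passed (14.7%), 254 of them higher in members (6.37%) and 332 lower (8.32%). In the 37 members with an Xcr1 UMI, 182 of 3761 were higher (4.84%) and 389 lower (10.3%). The programme list had 0 lower (median log2 fold change 1.54 against -0.03 over all genes) and the class II list 2 lower (median 0.84). The cytokine list had 0 higher (median -1.56) and the uptake receptors 2 higher.

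Itgae, the CD103 integrin chain of this branch in tissues, was 105, 94.4, 206, 175, 55.7 and 42.8 CPM in members. In C1q macrophages it was 0, 1.06, 0.244, 0.971, 1.14 and 0 CPM. The classes were separate in all 6 sums (log2 fold change 7.40, SE 0.50, edgeR adjusted p = 8.91e-09). Cd24a had a log2 fold change of 6.65 and Wdfy4 of 3.99. Irf8 was 274, 252, 152, 246, 200 and 227 CPM in the macrophages, below all member sums (1.78, SE 0.20, edgeR adjusted p = 4.76e-06).

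Batf3 was 196, 13.5, 96.0, 70.2, 176 and 71.4 CPM in members and 42.6, 47.7, 21.7, 27.7, 60.3 and 71.5 CPM in macrophages. It was higher in 4 of 6 sums and SCC32 went the other way (log2 fold change 1.26, SE 0.36, edgeR adjusted p = 0.0242). Sept3 had 81 UMIs in members and 1 in macrophages, a ratio of 1841 with a counting interval of 321 to 7.36e+04. Btla, an inhibitory receptor known on this branch, was higher by 6.33, Cst3 by 3.20 and Cbfa2t3, a transcriptional corepressor, by 2.93. Havcr2, which encodes the checkpoint receptor TIM-3, was higher by 1.03 (SE 0.26, edgeR adjusted p = 0.00915). In class II, H2-Oa (3.39), H2-DMb2 (2.60), Ciita (1.26) and Cd74, the invariant chain (0.84), were higher.

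Apoe, the lipid carrier of macrophages, was 15.05, 108, 0, 35.1, 0 and 14.3 CPM in members and 479, 3867, 3635, 2766, 914 and 983 CPM in macrophages. Members were lower in all 6 sums (log2 fold change -6.37, SE 0.34, edgeR adjusted p = 5.24e-10). Ms4a7 had 1 UMI in the member sums and 5270 in the macrophage sums, a ratio of 232 with an interval of 41.6 to 9161, and Pf4 1 and 2878, a ratio of 127 with an interval of 22.7 to 5004. Adgre1 (F4/80) was lower with a log2 fold change of -3.93, and Csf1r, the receptor for their growth factor, with -2.63. The scavenger receptor gene Msr1 had 2 UMIs against 1993, a ratio of 43.9 with an interval of 12.1 to 362, and Mrc1 had a log2 fold change of -2.73.

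Cxcl2, a chemokine for neutrophils, was 105, 256, 137, 193, 102 and 14.3 CPM in members and 1026, 2204, 1286, 2721, 1280 and 1309 CPM in macrophages. The classes did not overlap (log2 fold change -3.58, SE 0.22, edgeR adjusted p = 4.53e-09). Ccl12 had 3 UMIs against 6074, a ratio of 89.1 with an interval of 30.5 to 432, and Ccl8, Ccl5, Ccl9 and Ccl3 were lower, with log2 fold changes of -4.46, -3.83, -3.02 and -2.66. Il1b was lower too (-1.15). Cxcl9 was an exception, at 1761, 998, 261, 877, 1002 and 928 CPM in members and 875, 1400, 580, 1080, 1111 and 806 CPM in macrophages. Its ranges overlapped and it did not pass (log2 fold change -0.06, SE 0.19, edgeR adjusted p = 0.884).

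Of 29 tested interferon genes, 8 were lower than in macrophages and 1 higher (median log2 fold change -0.44). Ifit3 (-1.58), Ifit1 (-1.13) and Oasl1 (-0.99) were lower, of which Ifit1 lost the call in 6 of 15 alternatives and Oasl1 in 10 of 14, and Isg20, an interferon-induced exonuclease, was higher (0.84). Ifit3 has a near-identical neighbour, Ifit3b, so its count is uncertain. Ifitm1, which stood on the list of the Cd209a branch, was higher (2.23). The Ifitm1 value leaned on SCC35, where the members stood at 3277 CPM against 70.2 to 756 in the other sums. In the class I list 8 of 20 were higher and 3 lower. Psmb8 (1.20), Psmb9 (1.16), Tap2 (0.91) and Tap1 (0.86) were higher and B2m, the light chain of class I, lower (-0.51). H2-K1 and H2-D1, at 1659 and 1888 CPM in members, have near-identical relatives and are uncertain. Ly6c2 was not called against macrophages (-0.30), Plac8 was higher (0.70) and Ccr2 lower (-1.30).

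**Figure D4:**
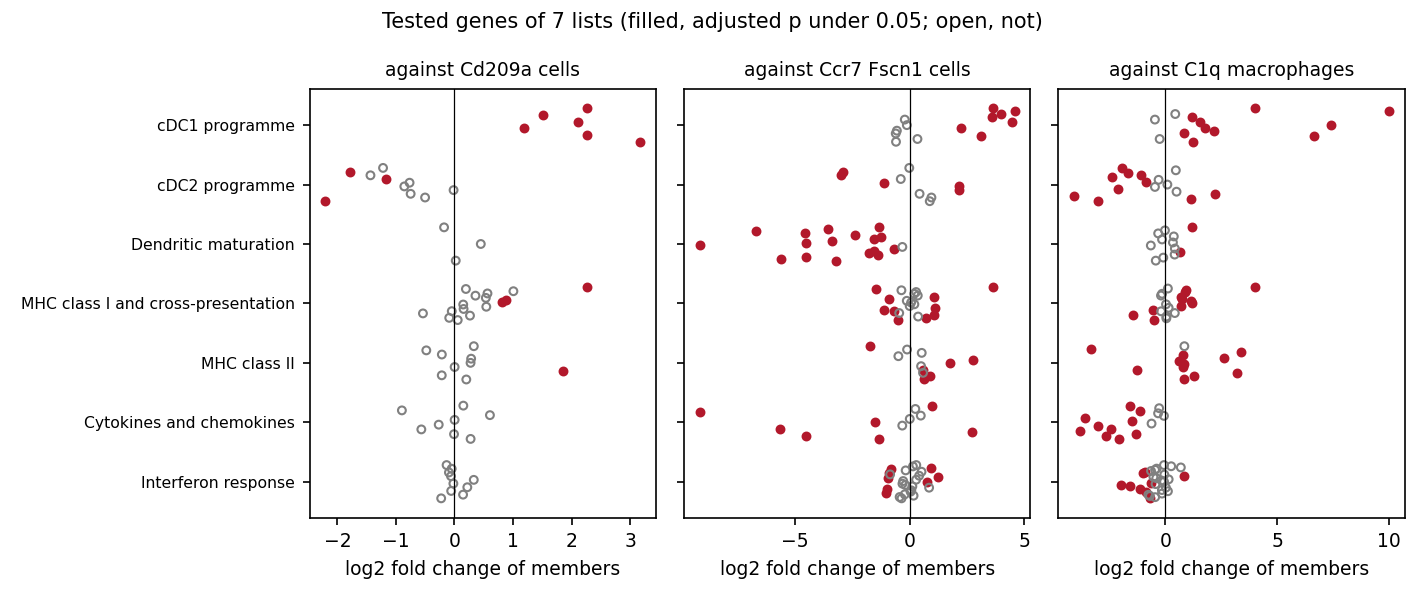
Fitted log2 fold changes (x axis) of the tested genes of 7 lists (y axis), members against Cd209a cells, mature cells and C1q macrophages, with 1 point for each gene, filled where it passed. Values of genes almost without counts in 1 class depend on the fit's prior count. The Xcr1 Clec9a programme (cDC1 in the plot) has medians of 2.19, 2.23 and 1.54 over its tested genes.

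Many programme and function genes were too sparse for the tests, and their pooled levels over all 129 members are a description. Tlr3, the sensor of double-stranded RNA of this branch, was seen in 17 members at 37.4 CPM, against 5.44, 4.35 and 13.2 CPM in the Cd209a, mature and C1q classes. Tlr11, an endosomal profilin sensor, was seen in 13 members at 24.4 CPM and stood at 2.72, 0.543 and 1.49 CPM in those classes. Gcsam was seen in 14 members at 32.5 CPM and was at 0, 1.63 and 0 CPM in the other classes. Zbtb46, a factor shared by conventional dendritic cells, was seen in 17 members at 32.5 CPM and was at 0 in C1q macrophages. The tumour necrosis factor ligand genes Tnfsf4 and Cd70 were at 0 in the members.

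Within the members, levels at later days did not differ from day 6 by the test. Members were summed by line and day where at least 5 were present, which gave 4 sums of day 6 (SCC31, SCC32, SCC35, SCC40) and 5 of later days (day 10 of SCC31, SCC35, SCC37 and SCC40, and day 16 of SCC40), with line as a block. SCC32 had a sum at day 6 alone and SCC37 a later sum alone. With line as a block those sums do not inform the day difference, which rests on SCC31, SCC35 and SCC40. Of 780 genes tested, 0 passed in either direction (0%), with 53 at an unadjusted p below 0.05 in edgeR. DESeq2 also called 0, with 20 at an unadjusted p below 0.05. All 8 tested programme genes missed the threshold (median log2 fold change 0.24 against 0.02 over all genes), Irf8 with 0.03 (SE 0.28).

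Interferon-induced genes had the lowest median of the lists, at -1.42 over 7 genes, and none passed. The sums of SCC32 and SCC37 are listed below but do not inform the fold changes. Isg15 was 1873, 2376, 430 and 2160 CPM at day 6 and 0, 208, 522, 207 and 712 CPM in the later sums. SCC35 was low at day 6, and the ranges overlapped (log2 fold change -2.46, SE 0.62, edgeR adjusted p = 0.487). Gbp2, an interferon-induced GTPase, was 805, 806, 55.5 and 409 CPM and then 51.2, 104, 424, 66.0 and 46.4 CPM. It overlapped as well (-2.31, SE 0.62, edgeR adjusted p = 0.487). Cxcl9 was 1948, 1061, 611 and 1516 CPM and then 666, 625, 979, 575 and 712 CPM (-0.98, SE 0.28, edgeR adjusted p = 0.560). Isg15 also differed between the subsets of members, at 452 CPM in members with both Xcr1 and Clec9a, 656 with Xcr1 only and 1586 with Clec9a only. The part of the subsets in the day values was not tested.

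In other fits single interferon genes passed. With the last day alone as the later group, Cxcl10 passed (log2 fold change -3.74, SE 0.52, edgeR adjusted p = 0.0262). With replicate number as a block and sums of single tumours, Isg15 passed (-3.08, SE 0.44, edgeR adjusted p = 0.0182).

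**Figure D5:**
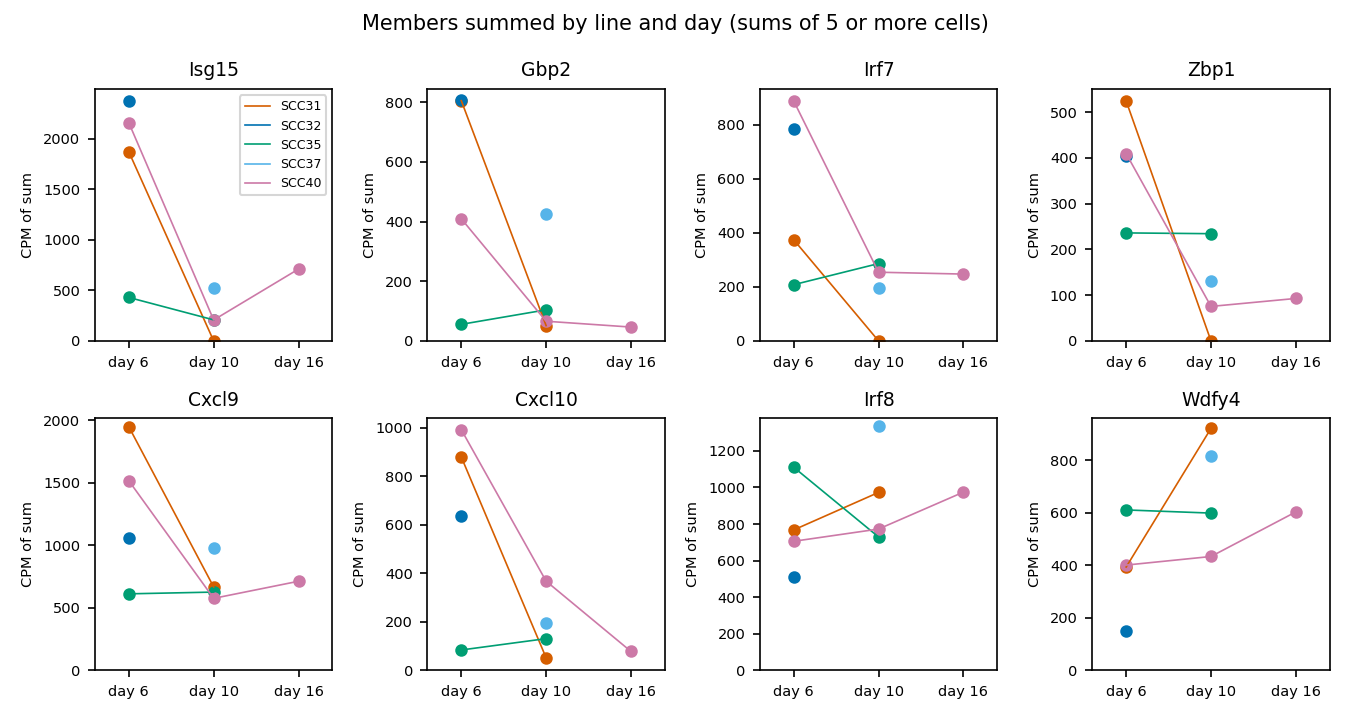
Levels of 8 genes in members (y axis, CPM of the sum) by day (x axis), with 1 point for each line and day sum of at least 5 members and a segment joining the sums of a line. Isg15 runs from 430 to 2376 CPM at day 6 and from 0 to 712 CPM later, while Irf8 runs from 509 to 1111 CPM and from 729 to 1338 CPM.

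Between rejected and non-rejected lines no gene of the members passed. The fit took 5 lines (20 and 40 members in SCC31 and SCC40, 13, 24 and 10 in SCC32, SCC35 and SCC37). Of 1175 genes tested, 0 were called (0%), with 51 at an unadjusted p below 0.05 in edgeR. DESeq2 also called 0, with 22 at an unadjusted p below 0.05. Irf8 was 823 and 738 CPM in the rejected lines and 495, 978 and 1250 CPM in the non-rejected lines, which enclosed them (log2 fold change -0.29, SE 0.39, edgeR adjusted p = 0.954). Ifitm1, an interferon-induced membrane protein, was 206 and 158 CPM against 953, 3459 and 100 CPM. The high value was that of SCC35 (-3.19, SE 1.02, edgeR adjusted p = 0.918). Sept3 was 110 and 90.5 CPM in the rejected lines and 133, 208 and 350 CPM in the non-rejected ones. Those ranges did not overlap, but the gene did not pass (-1.25, SE 0.51, edgeR adjusted p = 0.918).

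A UMI of the proliferation genes Mki67 or Top2a was seen in 27 of 129 members (20.9%), at a median of 6709 UMIs against 3421 in the rest. By line they were 2 of 20 in SCC31, 1 of 18 in SCC32, 4 of 28 in SCC35, 6 of 14 in SCC37 and 14 of 49 in SCC40. The share was 19.1% in Cd209a cells, 20.8% in mature cells and 24.4% in C1q macrophages. These shares are not at equal depth, and no order is read from them.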

How the data were processed

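The authors deposited raw UMI counts per gene and hashtag for 6 libraries. Per the submitters' processing notes they used Cell Ranger 6.0.0 and mm10, and the values are whole numbers, not normalised. Cells needed at least 300 genes, at most 15% mitochondrial counts, and a leading listed hashtag with at least 10 counts and 2 times the next. Lines, days, outcomes and replicate numbers came from the authors' deposited hashtag table. The members, gene lists and tests were chosen with earlier results of these data known.

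Counts were summed per class and tested with edgeR 4.0.16 in R 4.3.3 (TMM, filterByExpr). DESeq2 1.42.0 was an alternative. Single tumours held too few members (3 had at least 10), so sums per line and library were used, as planned. For days, sums of at least 10 members left 1 later sum, so 5 was taken after the counts were seen. Shares were compared by exact permutation of tumours within lines, or of lines. Scrublet ran in scanpy 1.11.5 with Python 3.11.15, NumPy 2.4.6 and SciPy 1.17.1. The gene fits were tested on simulated counts. Named genes were up to 4 called genes per list with the largest change, and the 10 largest rises and falls with at least 30 counts in the higher class that went the same way in all sums. Other genes named with values are members of the fixed lists or markers. Intervals cover counting error only.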

Additional observations from a re-analysis of the deposited data

Results flagged for a closer look

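Of 235 groups of 6 sums checked, 25 had a highest or lowest sum far from the rest, 10.6%, where chance flags about 1 in 20 groups if values are normally spread. A chance rate for sparse CPM values was not measured. Of the 25, 19 were in members, and several rest on 1 or 2 UMIs.

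In SCC32 members the high values were Apoe at 107.9 CPM (others 0 to 35.1), Ifit1 at 215.9 (15.05 to 70.2), Ifit3 at 242.8 (0 to 71.4), Samsn1 at 94.44 (13.7 to 35.1), Tgfbr2 at 40.47 (0 to 14.3) and Socs2 at 26.98 (others 0). In SCC37 members they were Ccl22 at 350.9 CPM (0 to 42.8), Ece1, an endothelin-converting protease, at 385.9 (105.3 to 178), Nlrp3 at 105.3 (54.85 to 67.5), Msr1 at 35.09 (others 0) and Mreg at 17.54 (others 0). In SCC35 members they were Ifitm1 at 3277 CPM (70.2 to 756), Plet1 at 699.3 (67.5 to 246), Plbd1 at 1015 (580 to 702) and Ccl8 at 95.98 (0 to 15.1). In the mix library members of SCC40, Cd52 was low at 1741 CPM (2347 to 2694), Tmem176a was high at 157 (17.5 to 60.2), and Ms4a7 and Pf4 stood at 14.27 each (others 0).

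Among the other classes, Ciita stood at 132.1 CPM in mature cells of SCC40 in the mix library, Ppt1 at 51.83 and Relb, the lowest, at 159.5 in mature cells of SCC35. In C1q macrophages H2-Oa stood at 22.76 CPM and Plet1 at 62.59 in SCC40, and Sept3 at 0.485 in SCC37.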

How the results depend on the processing

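Of the main values under alternatives, 152 were classed as unchanged, 19 moved, 4 reversed and 4 passed newly. For shares, unchanged meant the same direction and the same side of the threshold. For counts of called genes it meant only a count near the main one, and the genes called could differ. The values that moved were counts of called genes, and those that reversed or passed newly were shares. Among named genes, 1560 of the fits kept the call, 159 lost it and 0 reversed. Against Cd209a cells Nme2 lost it in 10 of 15, H2afj in 8 of 14, Psmb9 in 8 of 15 and Psmb8 in 6 of 15. Against mature cells Tubb5 lost it in 10 of 15, and Ciita and Tnfrsf1a in 7 of 13. Against macrophages Cd83 lost it in 11 of 15 and Oasl1 in 10 of 14. The share of all cells, -0.158 points, was 0.0201 with at least 2 Xcr1 or Clec9a UMIs, 0.0682 thinned to 1500 UMIs and 0.0666 without the mix library, and ran from -0.369 to 0.0526 with a tumour left out. Among Ptprc cells it was -1.17 thinned (adjusted p = 0.0194, exact permutation test), where the SCC31 day 10 tumour on which the call turned had 11 Ptprc cells left and dropped out under the minimum of 20, and -0.854 to -0.448 with a tumour left out. Between lines at day 10 the statistic 1.11 became 2.09 without the mix library, which left SCC31 with 1 tumour and 1 member with a Ptprc UMI.

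Genes called against Cd209a cells, 25, were 123 with no low count filter, 1 (Cst3) with tumour sums of at least 5 cells, 45 with line and library sums of at least 5 cells, 43 without Scrublet calls, 16 with at least 2 Xcr1 or Clec9a UMIs and 140 with an Xcr1 UMI. With a line left out they were 5 (SCC40) to 48 (SCC32), and 15 without SCC35. Against mature cells, 577 became 1155 without the filter, 220 with tumour sums, and 358 (SCC40) to 664 with a line left out. Against macrophages, 586 became 988, 245, and 280 (SCC40) to 567. By day, 0 became 28 without the filter, 1 with the last day alone and 1 with the replicate block. Between outcomes, 0 became 5 without the filter. The cause of these moves was not tested. Replicate numbers are not said to mark a shared litter or day. Tumour sums of at least 20 cells, and outcome with at least 2 Xcr1 or Clec9a UMIs, were not run for want of cells. The number of members limits all fits.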
